A study of Homo sapiens with 18 samples.

Results

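The 171 genes described here had more RNA in human embryonic stem cells after 48 h of Wnt3a than before it, and have no value in the companion table of SP5 mutant clones. They were chosen by a rule on measured values, from 10975 genes listed with RPKM, a read number scaled to transcript length and to the total of mapped reads. A gene was taken where its RPKM plus 1 at 48 h was at least 2 times that at 0 h, its highest RPKM was at least 6, and its symbol was absent from the mutant table. Of the 435 genes that met both limits, 259 were in the mutant table and 5 were left out because their symbols belong to 8 large families, such as solute carriers and collagens. The mutant table holds 497 genes, which the study picked for their response to Wnt3a in WT cells, so absence from it is no measurement of a gene in the mutants. Nor does absence mean that the study did not pick a gene. Its list of responding genes has 511, of which 14 are absent from the mutant table. Of the members 10 are on that list, among them EVX1, GATA4, MSX1 and MSX2.

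The cells were H1 (WA01), an established human embryonic stem cell line, grown in E8, a defined medium without feeder cells. Wnt3a was given at 1 nM, and RNA depleted of ribosomal RNA was sequenced from cells at 0, 12, 24 and 48 h. The study's own tables describe the 0 h cells as treated with WNT storage buffer for 48 h. Each time was covered by 1 library, so no value below has a replicate, no p-value is given, and the 12, 24 and 48 h values were all set against the same 0 h library. The mutant table, used here for its gene names, covers a further WT series (WT Rep. 2) and dZF1 and dZF2, H1 lines that are each 1 clone with the zinc finger coding part of SP5 deleted from both alleles, at the same 4 times of Wnt3a. SP5 chromatin immunoprecipitation (ChIP-Seq) came from cells with and without Wnt3a for 24 h according to the labels.

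WNT ligands stabilise β-catenin, which then acts with TCF and LEF factors at target genes. In pluripotent stem cells this signal starts differentiation toward mesendoderm, the common precursor of mesoderm and definitive endoderm, as in the primitive streak of the embryo. SP5 is itself a direct target of the pathway, and encodes a zinc finger protein of the SP and KLF family that binds GC-rich boxes.

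The libraries carried the markers of their label. POU5F1, a core pluripotency factor, was at 294.6 RPKM at 0 h and 243.1 RPKM at 48 h, and SOX2 went from 238.3 to 105.5 RPKM. TDGF1 was at 228.5 and 208 RPKM, and NANOG was low throughout at 3.3, 3.1, 5.9 and 3.4 RPKM. Markers of mesendoderm and endoderm were present after Wnt3a, with EOMES at 0, 34.8, 109.3 and 139.8 RPKM at the 4 times and SOX17 at 0, 0, 0.6 and 89.6 RPKM. The mesendoderm markers T, MIXL1 and GSC were instead highest at 24 h, and went from 21.7 to 10.1, from 271.1 to 76.4 and from 57.8 to 27.2 RPKM between 24 and 48 h. The 5 neural markers (PAX6, SOX1, OTX1, NEUROG2 and DCX) and the 5 trophoblast markers (GATA3, TFAP2A, KRT7, CGA and GCM1) were not listed. Of the 5 fibroblast markers, COL1A2 was at 13.8 RPKM at 0 h and 24.1 RPKM at 48 h, COL1A1 was at 4.2 and 2.6 RPKM, and the others were not listed. No marker gene met the rule, since those that reached both its limits, among them EOMES, SOX17, MIXL1 and GSC, are in the mutant table. The table gives no read numbers, so the depth behind an RPKM is unknown. In RNA from a whole culture, more cells of a type and more RNA per cell cannot be told apart.

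The members were mostly weakly expressed genes with modest increases. Their median RPKM over the 4 times was 3.8, 5.3, 6.6 and 10.6, where all listed genes had medians of 14.7, 14.7, 14.8 and 15.1 RPKM. The highest RPKM stayed under 10 for 77 members (45.0%), against 27.7% of all listed genes. The increase in RPKM from 0 to 48 h ranged from 1.7 to 262.2 with a median of 7, and it reached 10 RPKM in 55 members. On the scale of RPKM plus 1, 141 members were under 3-fold higher and 30 were at least 3-fold higher. The limit of 2 ran through a dense range of values. CAPN2 and SAT1 were among 6 members at a ratio of exactly 2, whereas TCP11L1, MAP7D1 and ANKMY2 were left just outside with 1.99. RPKM was deposited to 1 decimal, and 13 members would miss the limit if both values were off by 0.05 RPKM against the increase. At the limit on level, MED31 and SULT1C4 had a highest RPKM of 6, and LOC100128573, NHLH2 and JOSD2 were outside with 5.9, 5.8 and 5.8 RPKM.

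Most members reached 2-fold late. Over all listed genes, 1.22% were at least 2-fold higher after 12 h, 2.62% after 24 h and 4.87% after 48 h, and the last of these values was used by the rule. Among the members, 14 (8.19%) were first at least 2-fold above 0 h at 12 h, 20 (11.7%) took until 24 h and 137 (80.1%) until 48 h. The highest of the 4 levels was that of 12 h for 3 members, that of 24 h for 11 and that of 48 h for 157 (91.8%). As the rule asks for 2-fold at 48 h only, late crossing and a highest level at 48 h are partly set by it. By 12 h the median member had made 17.2% of its increase in RPKM and by 24 h 34.3%. The path was not always upward. Between neighbouring times 81 members (47.4%) never went down, 44 were below their 0 h level at 12 h, 21 at 24 h and 13 at both.

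**Figure D1:**
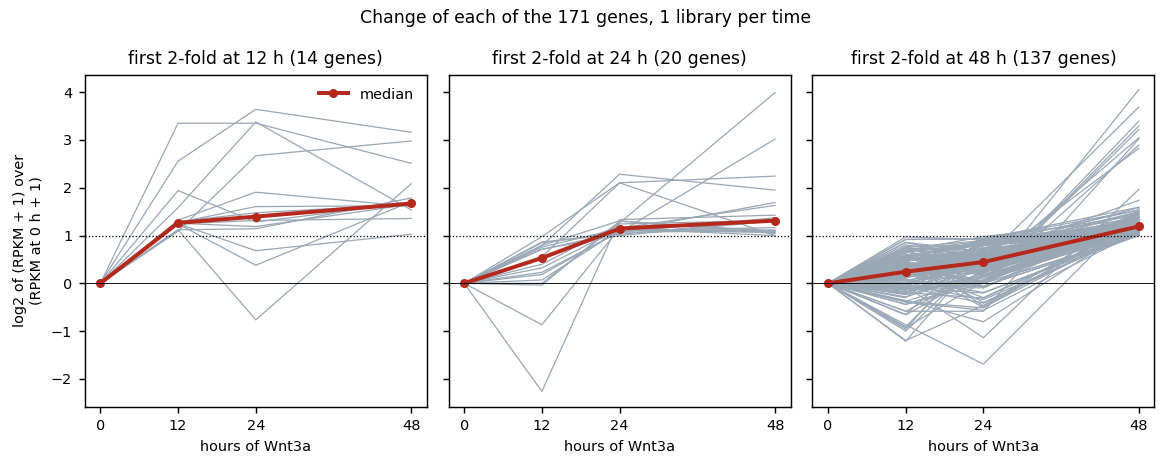
Change of each of the 171 genes over hours of Wnt3a (x axis), as log2 of RPKM plus 1 over its value at 0 h (y axis), in 3 panels by the time at which a gene was first at least 2-fold higher. Grey lines are genes, the red line is the median and the dotted line marks 2-fold; the 137 genes of the last panel had median log2 changes of 0.24, 0.45 and 1.19 at the 3 later times.

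The 26 members that act in transcription and chromatin held several genes that were near 0 up to 24 h and above 10 RPKM at 48 h. EVX1, a homeobox factor of the primitive streak, was listed at 0 RPKM at 0 h, 0.5 and 0 at 12 and 24 h, and 15.6 at 48 h. GATA4, a zinc finger factor of endoderm and heart, was listed at 0, 0, 1.4 and 14.9 RPKM. Both were thus at or under 1.4 RPKM until 48 h. The homeobox factors MSX1 and MSX2, known as targets of BMP signals, had the same course, with MSX1 at 0.5, 0, 0.8 and 11.4 RPKM and MSX2 at 0.9, 0.4, 0.9 and 13.1 RPKM. VENTX, a homeobox factor related to the Vent genes of ventral mesoderm in frogs, started higher and dipped, at 4.5, 1.4, 3 and 14.1 RPKM.

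Relatives of SP5 were among these factors. SP8, which acts beside SP5 in the tail bud of the mouse embryo, was at 3.2, 5.1, 5.2 and 9.9 RPKM. SP2, a ubiquitous SP factor, was at 2.8, 4.1, 3.9 and 7.7 RPKM. Both moved by a few RPKM only, SP8 to 3.09 times and SP2 to 2.75 times its 0 h RPKM. FOSL1, a subunit of the AP-1 factor, had 2.2, 3.7, 4.6 and 6.6 RPKM, up at each time.

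Among the cofactors, PNRC1, a coactivator of nuclear receptors, had the highest level at 28.6, 40.6, 48.2 and 59.7 RPKM. ANP32B, a histone chaperone, was at 19.2, 29.4, 35.4 and 45.9 RPKM. Both went up at every time. PHF10, a subunit of a SWI/SNF chromatin remodelling complex, was at 4.7 RPKM before Wnt3a, at 9.8 RPKM at both 12 and 24 h and at 15.5 RPKM at 48 h. THAP7, a transcriptional repressor that binds histone tails, peaked at 24 h with 8.7, 15.8, 23 and 19 RPKM. ANKRD1, a nuclear ankyrin protein induced by YAP in many cells, was listed at 0 RPKM until 24 h and at 8.3 RPKM at 48 h. IFI16, a sensor of foreign DNA, was listed at 0, 0.8, 1.1 and 7.1 RPKM.

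**Figure D2:**
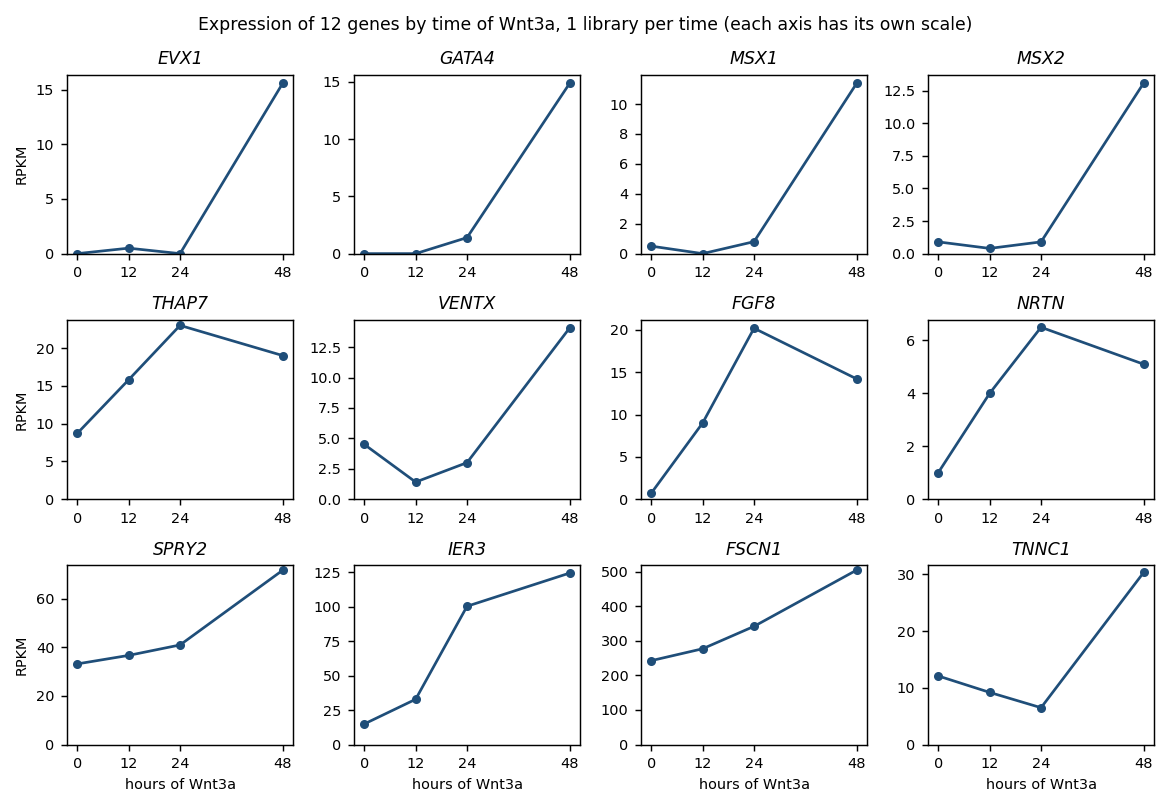
RPKM (y axis, a scale of its own in each panel, from 0) of 12 genes over hours of Wnt3a (x axis), with 1 library per point. EVX1, GATA4, MSX1 and MSX2 stayed at or under 1.4 RPKM up to 24 h, FGF8, NRTN and THAP7 were highest at 24 h, and IER3 went from 14.9 to 124.3 RPKM.

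Signals, receptors and their modulators made up 19 members, of which 4 reached 2-fold at 12 h, 1 at 24 h and 14 at 48 h. FGF8, a ligand made in the primitive streak and tail bud, was the earliest strong case at 0.7, 9, 20.2 and 14.2 RPKM. Its level at 24 h was 1.39 times that at 48 h on the scale of RPKM plus 1. NRTN, neurturin, a ligand of the GDNF family, followed the same course at 1, 4, 6.5 and 5.1 RPKM. TMEM88, which binds Dishevelled and dampens WNT signals, was at 0.7, 2.7, 0 and 6.2 RPKM, and so was listed at 0 between higher values. PMCH, the precursor of melanin-concentrating hormone, had a similar zigzag at 2, 6.1, 2.9 and 8.8 RPKM.

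The feedback inhibitor of receptor tyrosine kinases SPRY2 had the highest level in this group, at 33.2, 36.7, 41 and 71.8 RPKM, with most of its increase after 24 h. FZD4, a WNT receptor, was at 5.4, 6.5, 7.1 and 12.9 RPKM. TWSG1, which binds BMPs outside the cell, went up at each time from 13.9 through 18.4 and 22.1 to 29.8 RPKM. These receptor and modulator genes were all expressed before Wnt3a, unlike the ligand FGF8. LPAR6, a receptor for lysophosphatidic acid, was at 3.2, 5.9, 7.4 and 9.4 RPKM. INPPL1, the inositol phosphatase SHIP2, was flat to 12 h and then higher, at 10.5, 10.2, 14.1 and 22.9 RPKM. FURIN, the protease that cleaves precursors of NODAL and other ligands, and LRP10, a lipoprotein receptor relative, shared a small dip at 12 h: FURIN had 13.2, 11.6, 14.3 and 30.2 RPKM and LRP10 had 14.5, 13, 17.7 and 30.5 RPKM.

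The 17 cytoskeletal members held the most abundant member. None reached 2-fold at 12 h, 2 did at 24 h and 15 at 48 h, and all 17 were highest at 48 h. FSCN1, fascin, which bundles actin filaments in protrusions, had the largest increase of any member at 242.6, 277, 341.8 and 504.8 RPKM, which was 2.08 times its 0 h level. TAGLN2, an actin-binding transgelin, was at 43.5, 47.2, 58.5 and 95.7 RPKM, and ANXA2, a membrane-binding annexin, at 27.2, 32.4, 39.3 and 65.1 RPKM. All of these were abundant before Wnt3a and climbed at every time. ANXA3, another annexin, instead dipped to 4.4 and 3.8 RPKM between 6.1 RPKM at 0 h and 14 RPKM at 48 h. TNNC1, the calcium-binding troponin of heart and slow muscle, dipped likewise, at 12.1, 9.2, 6.5 and 30.4 RPKM. The GTPase-activating proteins ARHGAP24 and ARHGAP28 differed in their start. ARHGAP24 was listed at 0, 0.4, 0.4 and 11.9 RPKM, and ARHGAP28 was at 5.2, 6.8, 6.9 and 12.6 RPKM. CAP2, a cyclase-associated protein that recycles actin, was at 5.1, 4.7, 4.3 and 11.7 RPKM, and STMN2, a regulator of microtubules in neurons, was at 3.8, 4.9, 2.9 and 10.2 RPKM.

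All 8 members of the matrix, protease and protease inhibitor group first reached 2-fold at 48 h. WFDC2, a secreted protein of the whey acidic protein family, had the highest level at 19.2, 21.4, 25.4 and 44.2 RPKM. SERPINB6, an intracellular serine protease inhibitor, was at 10, 11.2, 14.7 and 22.9 RPKM. FBLN2, a fibulin of basement membranes, was lower at 12 and 24 h than at 0 h, at 9.4, 8.1, 7.4 and 22.3 RPKM. CPXM1, a secreted member of the carboxypeptidase family, moved earlier at 11.3, 12.2, 20.4 and 25.7 RPKM. PRSS2, a trypsinogen, was listed at 0 RPKM at 0, 12 and 24 h and at 9.5 RPKM at 48 h; it has near-identical paralogs whose reads it may share, so its level is uncertain.

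Of the 17 members in stress, growth control and intracellular kinases and phosphatases, IER3 stood out. This immediate-early gene, which acts in survival and ERK signalling, was at 14.9, 32.8, 100.2 and 124.3 RPKM, in the end 8.34 times its 0 h level. It was the member with the second largest increase in RPKM. FAIM, an inhibitor of FAS-induced apoptosis, was at 4.4, 11.9, 11.3 and 16 RPKM, with steps up at 12 h and again at 48 h. C13orf15, also named RGCC, a regulator of the cell cycle, was listed at 0 at 12 and 24 h between 0.5 RPKM at 0 h and 11.2 RPKM at 48 h. PRKCDBP, the caveolar protein cavin 3, was at 18.6, 15.1, 21.7 and 52.2 RPKM. CAMKK2, a calcium-dependent kinase that activates AMPK, was at 19, 18.9, 26.5 and 40.5 RPKM, and MAPK12, a p38 kinase, was at 6.4, 6, 8.1 and 14.5 RPKM. The last 3 genes shared a flat or lower level at 12 h.

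Metabolism and redox formed a group of 23 members, of which 22 first reached 2-fold at 48 h. DDT, D-dopachrome tautomerase, had the highest level at 25.4, 38.1, 45.6 and 62.4 RPKM, with a near-identical paralog that may share its reads. SAT1, the acetylating enzyme of polyamine breakdown, was at 26.4, 33.4, 48.9 and 53.8 RPKM, and ETFB, a subunit of the mitochondrial electron transfer flavoprotein, was at 19.8, 24.6, 35 and 42.3 RPKM. MGST2, a microsomal glutathione transferase, was at 11.4, 10.3, 19.3 and 34.1 RPKM. Of these enzymes MGST2 made the most of its increase after 24 h. FAM36A, also named COX20, an assembly factor of cytochrome oxidase, was the early exception with 3.1, 8.7, 9.2 and 9.5 RPKM. APOA2, an apolipoprotein of liver and visceral endoderm, was listed at 0 RPKM up to 24 h and at 8.8 RPKM at 48 h. GPX2, a glutathione peroxidase of gut epithelium, was listed at 1.2, 1.1, 0 and 7.6 RPKM.

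In membrane traffic, cilia and channels there were 15 members, all highest at 48 h. VAMP5, a vesicle membrane protein of muscle, was at 2, 4.9, 11.9 and 13.2 RPKM. B9D1, a protein of the transition zone of cilia, was at 5, 13.7, 15.7 and 17.9 RPKM, and SFT2D2, a vesicle transport protein, was at 1.4, 4.8, 6.3 and 6.4 RPKM. These 3 had made most of their increase by 24 h. GJA4, the gap junction protein connexin 37, had the opposite course at 3.2, 1.3, 0.3 and 11.4 RPKM, and TRPC4, a cation channel, stayed at 3.9, 3.7 and 3.7 RPKM before 8.9 RPKM at 48 h.

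RNA, ribosome and DNA repair held 9 members. C16orf57, also named USB1, which trims the U6 RNA, was at 15.9, 18.8, 19 and 34.7 RPKM. RPS28, a ribosomal protein, was highest at 12 h with 2.7, 13.2, 8 and 10.9 RPKM. It has many near-identical pseudogene copies, and its level is uncertain for that reason, as are those of the pseudogenes RPL23AP64, with 4.3, 11.6, 7.5 and 9.8 RPKM, and CYCSP52, listed at 0, 9.2, 9.2 and 4.7 RPKM. These 3 were the members highest at 12 h, CYCSP52 together with 24 h. FLJ35024, a noncoding RNA, was at 0.7, 1.5, 6.3 and 2.4 RPKM, and like CYCSP52 it was at least 1.5-fold below its peak at 48 h. Among 11 noncoding RNAs and pseudogenes, HAS2-AS1 was at 2.6, 2.1, 4.5 and 9.1 RPKM. Its start site lies 2147 bases from that of HAS2, the hyaluronan synthase gene on the opposite strand, which was at 3.8, 33.9, 54 and 309.1 RPKM. Whether the strand was used in counting is not given in the sources used here, so reads of the antisense RNA and of HAS2 cannot be told apart.

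The remaining 26 members were little characterised or of other function. CCDC167, a small coiled-coil protein, was at 16.6, 6.6, 26.4 and 40.6 RPKM. SPATA16, known from sperm acrosome formation, was highest at 24 h with 1.2, 2.8, 9.7 and 7.5 RPKM. NIPSNAP3A, of a family of mitochondrial proteins, reached 2-fold at 12 h with 1.9, 5.3, 5.4 and 9 RPKM. CCDC92 was listed at 0, 0, 0.3 and 6.1 RPKM. In all, 10 members were listed at 0 before Wnt3a, among them EVX1, GATA4, ARHGAP24, PRSS2, APOA2, ANKRD1, IFI16, CCDC92 and CYCSP52.

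The medians of the functional groups lay further apart at 12 and 24 h than at 48 h, where the rule held every member at or above 2-fold. Median log2 changes of RPKM plus 1 at 12 h were lowest for the matrix and protease group (0.12), the signals and receptors (0.14) and the cytoskeletal genes (0.19), and highest for noncoding RNAs and pseudogenes (0.56) and RNA, ribosome and DNA repair (0.49). At 24 h the cytoskeletal and matrix groups were still at 0.31 and 0.26, when transcription and chromatin was at 0.61 and membrane traffic, cilia and channels at 0.71. At 48 h the medians ranged from 1.13 to 1.33. The groups were formed after the members were known, hold 8 to 26 genes each, and were not compared by a test.

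**Figure D3:**
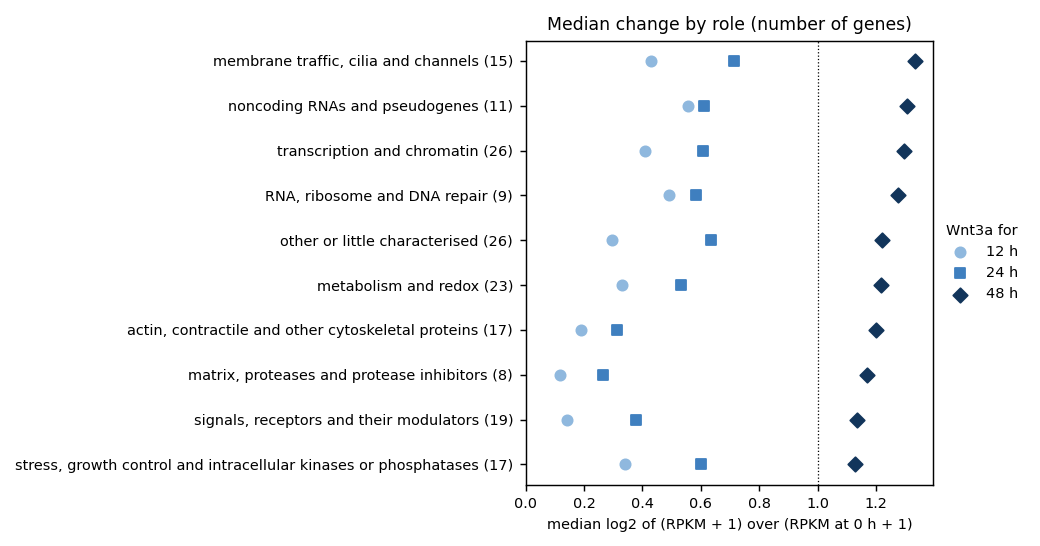
Median log2 change of RPKM plus 1 from 0 h (x axis) in each of 10 functional groups of the 171 genes (y axis, number of genes in parentheses) at 12, 24 and 48 h of Wnt3a, with the dotted line at 2-fold. At 24 h the medians lay between 0.26 for the matrix and protease group and 0.71 for membrane traffic, cilia and channels, and at 48 h all were above 1.

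The members were set against 22 gene lists of pathways and cell types. Over all listed genes 4.87% were at least 2-fold higher at 48 h and 2.95% at least 2-fold lower, with a median log2 change of -0.00. Of 27 measured mesendoderm and primitive streak factors, 19 were at least 2-fold higher at 48 h and 0 lower, with a median of 1.87. Of these, 12 were raised genes of the mutant table and 3 were members, EVX1, GATA4 and SP8. Of 27 endoderm markers 15 were higher and 0 lower, and APOA2 was the only member. Of 7 trophoblast and extraembryonic genes 4 were higher, among them the members MSX1 and MSX2. Thus both homeobox genes stood on a list whose defining trophoblast markers, GATA3 included, were not listed.

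Of 105 genes of the actin cytoskeleton and its regulation, 19 were at least 2-fold higher and 5 lower, with a median log2 change of 0.12. This list gave the most members, 8, which were FSCN1, TAGLN2, ANXA2, ANXA3, ARHGAP24, ARHGAP28, ARHGEF3 and ACTA1. Of 68 immediate-early, stress and p53 target genes 4 were higher and 8 lower, and 3 of the 4 were the members IER3, ANKRD1 and FOSL1. The signalling lists gave fewer. Of 52 WNT components 15 were higher, 13 of them in the mutant table and FZD4 a member, and 1 was lower. Of 46 TGF-β and BMP genes 13 were higher, 12 of them in the mutant table and TWSG1 a member, and 3 were lower. Of 68 FGF, receptor tyrosine kinase and MAPK genes 15 were higher and 2 lower. Of the higher genes 12 were in the mutant table, and FGF8 and SPRY2 were members.

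Of 58 extracellular proteases and inhibitors 11 were higher and 3 lower, with SERPINB6 among its members. Of 50 ion channel genes 7 were higher and 3 lower, with GJA4 and TRPC4 as members. Further lists gave 1 member each. These were TNNC1 among 12 mesoderm derivative genes with 3 higher and 1 lower, FBLN2 among 43 matrix genes with 7 higher and 2 lower, LPAR6 among 75 genes of G protein signalling with 9 higher and 8 lower, IFI16 among 78 innate immune genes with 9 higher and 8 lower, and STMN2 among 71 neural genes with 12 higher and 11 lower. The other 7 lists held no member. Of these, core pluripotency had 2 of 28 higher and 7 lower, Hedgehog and retinoid signalling 3 of 20 higher and 1 lower, and Notch signalling 2 of 19 higher and 1 lower. Cadherins and junctions had 6 of 48 higher and 4 lower, keratins 2 of 11 higher, lipid metabolism 5 of 79 higher and 1 lower, and lysosome and autophagy 1 of 41 higher.

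Set beside the 259 raised genes of the mutant table, the members were lower in level, and more of them first reached 2-fold at 48 h. The table's genes had a median of 4 RPKM at 0 h and 21.4 RPKM at 48 h, where the members had 3.8 and 10.6 RPKM. Of the table's genes 177 (68.3%) were at least 3-fold higher at 48 h, against 30 members (17.5%). They first reached 2-fold at 12 h in 57 cases (22.0%), at 24 h in 91 (35.1%) and at 48 h in 111 (42.9%), where 137 members (80.1%) did so at 48 h. The median gene of the table had made 14.1% of its increase in RPKM by 12 h and 43.3% by 24 h. The median member had made 17.2% and 34.3%, which was more at 12 h and less at 24 h. Both sets were chosen by the same change, and the table was filled by the study's choice on the response to Wnt3a, so these differences are descriptions and were not tested. The longest annotated transcript had a median of 2854 bases among the members, 4044 bases among the table's genes and 3850 bases among all matched genes.

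SP5 peaks gave a readout that the rule did not use. The authors deposited 2 peak lists, both called by MACS from the same ChIP library according to their headers, which name it as Wnt3a-treated H9 cells where the labels give H1, and differing in the control library. The list against the Wnt3a-treated control has 540 peaks with a median false discovery rate of 39.7%, and the list against the buffer-treated control has 542 peaks with a median of 69.6%. MACS estimates this rate by swapping ChIP and control, so a rate of this size marks peaks for which the swap gave many calls of equal score. A start site in GENCODE was found for 166 of the 171 members. In the first list a peak summit lay within 2000 bases of the start site of 6 members (3.61%, 95% Wilson interval 1.67 to 7.66%), against 1.05% of all listed genes and 11 of 258 raised genes of the mutant table (4.26%). Within 10000 bases there were 8 members (4.82%) against 1.53%, within 50000 bases 13 (7.83%, interval 4.63 to 12.9%) against 4.23%, and within 100000 bases 24 (14.5%) against 7.43%. The second list gave 3 members (1.81%) within 2000 bases against 0.897% of all listed genes, 6 (3.61%) within 10000 bases against 1.36%, 11 (6.63%) within 50000 bases against 3.82% and 18 (10.8%) within 100000 bases against 6.6%. For the raised genes of the mutant table the shares within 10000, 50000 and 100000 bases were 4.65%, 8.53% and 11.6% in the first list. In the second list they were 4.65%, 5.81%, 7.75% and 11.6% within 2000, 10000, 50000 and 100000 bases. At each of these 4 distances the intervals of the members overlapped those of the raised genes of the mutant table. The intervals cover counting error only. With only the peaks found in both lists, the shares within 2000 bases were 0.602% of members and 0.555% of all listed genes. Within 50000 bases they were 2.41% and 2.17%. The raised genes of the mutant table had 2.71% and 4.26% at these distances, and the sets were not compared by a test.

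The peaks nearest to members, in bases from the start site with negative values upstream, included those at CAP2 (46), VENTX (-101), INPPL1 (-473), PHF10 (567), NRTN (-1124), FSCN1 (1422) and MAPK12 (-9892) in the first list. The CAP2 peak had 18 tags and a false discovery rate of 35.5%, and overlapped no peak of the second list. For INPPL1, PHF10, NRTN, FSCN1 and MAPK12 the rates were 27.3, 40.6, 45.1, 45.6 and 28.2%. In the second list CPXM1 had a summit at 1183, C16orf57 at 1520 and VAMP5 at -4888, with rates of 73.7, 74.8 and 75.5%. The C16orf57 summit lay in an exon of that gene, although the start site of ZNF319 was nearer to it. The VAMP5 summit lay in an intron of VAMP8. VENTX was the only member with a summit within 2000 bases in both lists, with 38 tags in the peak and false discovery rates of 49.1% and 76.6%. SP8 carried the clearest peak near a member, with its summit 11486 bases upstream of the start site, 80 tags, an enrichment of 18.3-fold in the first list and 16.2-fold in the second, and a false discovery rate of 0% in both. It was the only member within 50000 bases of a summit with a rate of at most 5% in the first list. C17orf96, an interactor of Polycomb complexes also named EPOP, had a summit 29023 bases upstream with 62 tags and rates of 5.17% and 3.33%, although the start site of MLLT6 was nearer to it.

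The DNA at 3 of these summits follows, 60 bases to each side on the plus strand of hg19, because it bears on the GC boxes that SP factors bind. Capitals mark GGGCGG and GGGAGG on either strand, which can overlap in runs of G. The windows are chr7:20837931-20838051 for SP8, between genes, chr10:135051198-135051318 for VENTX, just upstream of the gene, and chr6:17393812-17393932 for CAP2, in an exon at its start.
SP8: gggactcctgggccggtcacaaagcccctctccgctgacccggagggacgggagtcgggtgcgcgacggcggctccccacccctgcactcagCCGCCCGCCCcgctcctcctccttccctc
VENTX: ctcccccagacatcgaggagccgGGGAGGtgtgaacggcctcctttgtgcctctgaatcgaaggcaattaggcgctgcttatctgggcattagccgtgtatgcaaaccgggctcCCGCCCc
CAP2: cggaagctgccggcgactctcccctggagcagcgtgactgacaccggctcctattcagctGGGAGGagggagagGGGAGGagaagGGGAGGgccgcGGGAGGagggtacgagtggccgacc

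SP8 held 2 GGGCGG boxes, which overlapped and read on the minus strand, VENTX 1 GGGCGG and 1 GGGAGG, and CAP2 4 GGGAGG. PHF10 and MAPK12 had 1 GGGAGG each in windows of the same length, and NRTN had no match. Over 539 summits of the first list that lie on assembled chromosomes, 29.9% had GGGCGG and 37.1% GGGAGG in such a window, so the boxes were found at many summits away from members too. A match of 6 letters is a description of the sequence and no sign of binding.

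**Figure D4:**
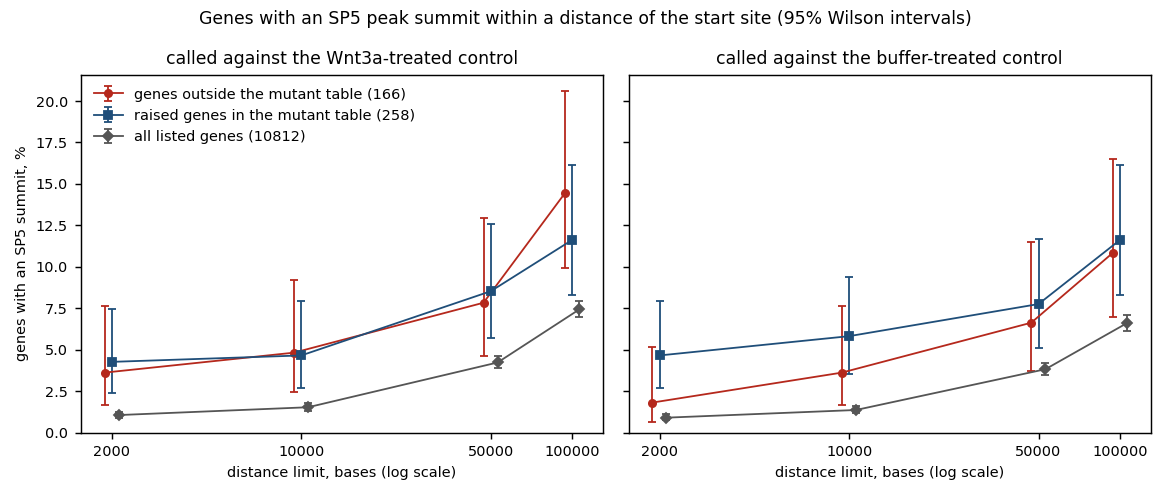
Percent of genes with an SP5 peak summit within a distance of the start site (y axis) against that distance in bases (x axis, log scale), for the 166 genes outside the mutant table, the 258 raised genes in it and all 10812 listed genes with a start site, in the peak list against each control. Bars are 95% Wilson intervals, points are moved slightly sideways, and within 2000 bases the first list gave 3.61%, 4.26% and 1.05%.

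In the promoters, taken from 250 bases before to 50 after the 5′ end of the GENCODE gene in GRCh37, GGGCGG stood on either strand in 103 of 166 members (62.0%), 57.8% of the raised genes of the mutant table and 64.1% of 10812 listed genes. GGGAGG stood in 59.0%, 64.3% and 57.5%. The members thus did not stand apart from the listed genes in either box. CTTTGAT, a core sequence of TCF and LEF sites, stood in 1 member promoter (0.602%), that of HOMEZ, against 5.04% in the mutant table's genes and 1.79% of listed genes. For the members the 95% Wilson interval was 0.106 to 3.33%. It holds the share of listed genes and overlaps the interval of the mutant table's genes, 2.97 to 8.43%. TATAAA, the core of the TATA box, stood in 17 member promoters (10.2%, 95% Wilson interval 6.49 to 15.8%), against 13.2% and 6.71%. ACTA1, VENTX, FSCN1, CPXM1 and DDT were among these 17.

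Some members lay beside other genes that were higher after Wnt3a. The start site of 10 members (6.02%) was within 50000 bases of that of another of the 435 raised genes, where the share over all listed genes was 2.97%. Besides HAS2-AS1 with HAS2, TMEM91 lay 3011 bases from TGFB1, B9D1 8997 bases from MFAP4 and VAMP5 22869 bases from VAMP8, all of them in the mutant table. VAMP8, another vesicle SNARE, was at 55.2, 78.9, 238.7 and 201.8 RPKM, where VAMP5 was at 2, 4.9, 11.9 and 13.2 RPKM. MFAP4, a microfibril protein, was at 5.3, 6, 33.3 and 28.3 RPKM, whereas B9D1 was already at 13.7 RPKM at 12 h. The pairs PNRC1 and SRSF12, MDP1 and REC8, and SFT2D2 and ANKRD36BP1 were both members, 37320, 44214 and 21405 bases apart.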

How the data were processed

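RNA was measured in 4 libraries, 1 per time of Wnt3a. The authors aligned RNA-Seq reads to hg19 with TopHat and made RPKM with Cuffdiff, and deposited RPKM to 1 decimal for genes with a highest RPKM of at least 4. The annotation behind it is not given in the sources used here. In the mutant table the authors deposited the WT values as a fraction of the highest WT RPKM of a gene and the clone values as a ratio to that RPKM. Only the gene names of that table were used. For each SP5 peak the authors deposited the tag count, a score equal to log10 of the p-value times -10, the fold enrichment against the control library, and the false discovery rate as a percent, at a p-value cutoff of 1e-05. The submitters' processing notes name Bowtie 0.12.7, SAMtools 0.1.12a, Cuffdiff and MACS 1.4.2. Per-sample columns without a condition numbered 0.

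Ratios were computed on RPKM plus 1, since genes at 0 have no ratio; this understates the change of low genes. A ratio called 2-fold has no test, as there is 1 library per time. Symbols were matched to GENCODE release 44 on GRCh37 through RefSeq synonyms, where the start site is the 5′ end of the annotated gene, and 10812 of 10975 matched. The RefSeq promoter table matched too few members, so promoters were read from the genome. Sequences of summits were read from GRCh37, the build of the peaks. Python 3.11.15, numpy 2.4.6, pandas 2.3.3, scipy 1.17.1, pysam 0.24.0 and matplotlib 3.10.9 were used. Of the steps, only the rule that picks members was tested on simulated data, with increases at 48 h well above its limit.

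The members, the 22 lists and the alternatives were chosen with earlier results of these data known, and the functional groups after the members were known. The genes named are the 15 members with the largest increase in RPKM, the 10 with the largest ratio at 48 h and at 12 h, up to 10 with the largest fall from an earlier peak, every member with a summit within 10000 bases, up to 6 members of each list, those at the thresholds and the 10 listed at 0 before Wnt3a. SP2, FURIN, LRP10, C17orf96, HAS2-AS1, HOMEZ, the genes of close pairs and the motifs CTTTGAT and TATAAA were chosen after the files were seen. The alternatives were other pseudocounts, minimum levels, ratios, scaling and symbol filters, and other peak lists, distances and thresholds. Some members and sequences that fall under these rules are not reported here.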

Additional observations from a re-analysis of the deposited data

How the results depend on the processing

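Each library stands alone and its depth is unknown, so a change of a few RPKM in 1 member cannot be told from error, and leaving out a replicate was not possible. No paired analysis was possible because each time has 1 library and the members have no value in the table that holds WT Rep. 2. Of 49 values recomputed under an alternative, 22 stayed within 1.5 times and 27 moved further. With a pseudocount of 5 RPKM there were 40 members, of which 2, 4 and 34 first reached 2-fold at 12, 24 and 48 h, 2 were highest at 24 h and 37 at 48 h, 16 were on a list, and 3 had a summit within 2000 and 3 within 50000 bases. With a pseudocount of 0.1 RPKM there were 229 members, of which 29 and 35 first reached 2-fold at 12 and 24 h. Of the 229, 19 were highest at 24 h. Without the minimum level there were 254 members, of which 29 and 37 first reached 2-fold at 12 and 24 h. With a highest RPKM of at least 10 there were 94 members, 6, 8 and 80 by time of reaching 2-fold, with 6 highest at 24 h and 86 at 48 h. A ratio of at least 3 left 30 members. Within 2000 bases the second peak list gave 3 members (1.81%, against 0.897% of all listed genes). Peaks in both lists gave 1 (0.602% against 0.555%), and a false discovery rate of at most 5% gave 0 (against 0.148%). Within 50000 bases peaks in both lists gave 4 (2.41% against 2.17%) and that rate 1 (0.602% against 0.546%). The limit of 100000 bases gave 24 (14.5% against 7.43%). For peaks in both lists the share of members was thus near that of all listed genes. With each of these pseudocounts and minimum levels, more members first reached 2-fold at 48 h than earlier. The rule asks for 2-fold at 48 h and sets no limit at 12 or 24 h, so this majority is partly set by the choice of members.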
